A study of Mus musculus with 12 samples.

Results

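The cytotoxic granule and NK receptor genes were 10 genes, *Nkg7*, *Gzma*, *Gzmb*, *Gzmk*, *Prf1*, *Ctsw*, *Klrb1c*, *Klrc1*, *Klrd1* and *Klrk1*, of the 40840 genes in the count files. They were measured in donor OTII cells, whose transgenic receptor recognises ovalbumin (OVA), after transfer into WT or Il6-/- recipients. The recipients were sensitized through the nose with endotoxin-containing house dust mite extract (HDM) plus LPS-free OVA, and the donor cells were sorted from the mediastinal lymph nodes (mLN) by CD4 and the congenic marker CD45.1 on Day 3 or Day 5. The 4 groups were WT recipients on Day 3, Il6-/- recipients on Day 3, WT recipients on Day 5 and Il6-/- recipients on Day 5, with 3 libraries each. All 12 libraries came from OTII cells primed with the same HDM and OVA, so no group was unsensitized. The germline deletion was carried by the recipient and not by the sorted cells, so *Il6* reads in the OTII cells do not check the labels. The labels named the tissue as blood while the design text named the mLN, and the design text stated that the days of the manuscript are counted from day 0. The ages of the mice, and whether a library was 1 mouse or a pool, were not given in the sources used here, so the spread between the 3 libraries of a group may be technical in part.

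The 10 genes were chosen by what they encode and from fold changes of these same libraries that were already known, so their levels and differences are given as a description, with no test. All 10 genes had a row in the files, and 8 of them passed the filter on low counts that 13570 genes passed. *Gzma* and *Klrk1* did not pass it and are given as read counts.

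Cytotoxic lymphocytes kill by releasing granules in which perforin opens the membrane of the target cell and granzymes, serine proteases, enter and cleave death substrates. The NK receptors of the C-type lectin family lie side by side in the NK gene complex and read the state of other cells through MHC class I-like ligands or related lectins. Both sets are best known in NK cells and CD8+ T cells, and T-bet, Eomes, Runx3 and STAT5 are among the factors known to act on them in T cells.

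To show the sequence in front of these genes, the 250 bases before the annotated start are printed for *Nkg7*, *Ctsw* and *Klrc1*, the genes whose WT and Il6-/- libraries did not overlap on Day 3 and whose window held no annotated exon. The windows were read from the GRCm39 genome at the GENCODE starts and lie at chr7:43086247-43086496 on the + strand for *Nkg7*, chr19:5518536-5518785 on the - strand for *Ctsw* and chr6:129655937-129656186 on the - strand for *Klrc1*. Capitals mark matches, on either strand, to TTCNNNGAA (STAT), TGTGGT (RUNX) or GGTGTG (T-box core), and GGTGTG lies inside the longer T-box motif AGGTGTGA that was searched as well.
Nkg7: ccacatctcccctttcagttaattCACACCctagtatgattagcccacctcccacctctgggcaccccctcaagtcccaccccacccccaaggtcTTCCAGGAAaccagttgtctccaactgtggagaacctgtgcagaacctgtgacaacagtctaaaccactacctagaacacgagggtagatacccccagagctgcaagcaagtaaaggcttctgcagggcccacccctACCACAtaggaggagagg
Ctsw: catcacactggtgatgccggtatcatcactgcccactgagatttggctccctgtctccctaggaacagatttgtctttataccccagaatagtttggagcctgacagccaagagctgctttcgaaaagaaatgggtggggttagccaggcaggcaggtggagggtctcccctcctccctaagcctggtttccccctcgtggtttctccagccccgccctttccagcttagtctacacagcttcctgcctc
Klrc1: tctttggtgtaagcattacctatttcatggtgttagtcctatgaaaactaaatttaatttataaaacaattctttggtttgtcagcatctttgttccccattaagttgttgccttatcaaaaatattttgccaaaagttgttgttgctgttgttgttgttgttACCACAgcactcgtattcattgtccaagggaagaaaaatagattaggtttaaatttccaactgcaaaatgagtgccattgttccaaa
The *Nkg7* window held a STAT match from -155 to -147, a T-box core match from -226 to -221 and a RUNX match from -18 to -13, counted from the start site. The *Klrc1* window held a RUNX match from -87 to -82, and the *Ctsw* window held none of the 4 motifs. Of the other 7 genes, *Gzmb* had a STAT match from -37 to -29 and RUNX matches from -167 to -162 and from -108 to -103. RUNX matches were also found in the windows of *Klrb1c*, *Klrd1*, *Gzma* and *Prf1*, and T-box core matches in those of *Gzmk* and *Prf1*. The window of *Klrk1* held none of the motifs. The windows of *Klrb1c*, *Gzmk* and *Klrk1* were set at a start inside the span of the gene and held an exon of that gene, so that they are not sequence in front of the whole gene. Among 21738 promoter windows of the same length, 7.69% held the STAT motif, 13% the RUNX motif, 16.6% the T-box core and 0.961% the longer T-box motif, so that short matches of this kind are common.

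Between 16125947 and 26111657 reads per library were counted to genes (median 19727354), and 3 reads in a library corresponded to 0.117 to 0.176 CPM, the reads of a gene scaled to a library total of 1000000. A group with no library above 3 reads is called at the floor, and these limits cover counting error only. Of the libraries' reads, 23.7% to 28.3% were not uniquely placed and were left out by the authors' counting. This can lower genes with close copies, here *Klrc1* (*Klrc2* and *Klrc3*), *Klrb1c* (other *Klrb1* genes) and *Gzmb* (other granzymes of its cluster).

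The CD4 label was checked against cell type markers, together with markers of other cells known for the 10 genes. All 9 CD4 T cell markers were above 1 CPM, and their sum was 6705 to 7893 CPM in WT against 5975 to 6111 CPM in Il6-/- recipients on Day 3, then 12020 to 12340 and 10370 to 11520 CPM on Day 5. Of 10 NK cell markers, *Klra4*, *Klra8* and *Klra9* had no counted read in any library and *Ncr1*, *Klri2* and *Klre1* had at most 1 read. Reads not uniquely placed are missing from these counts. The sum of the NK list was 81.6 to 86.8 CPM in WT against 40.2 to 54.0 CPM in Il6-/- recipients on Day 3 and 66.4 to 83.3 and 57.7 to 82.5 CPM on Day 5, and most of it was *Txk*, a kinase that T cells also express. The means of the other 3 NK markers, *Eomes*, *Tyrobp* and *Fcer1g*, were higher on Day 5 than on Day 3 in both genotypes. *Eomes* had means of 0.230 and 0.831 CPM on Day 3 and 2.33 and 3.64 CPM on Day 5 in WT and Il6-/- recipients. *Tyrobp* had 1.36 and 1.12 then 2.54 and 3.56 CPM, and *Fcer1g* had 1.05 and 0.967 then 1.77 and 1.95 CPM. Of the CD8 T cell markers, *Cd8a* was at most 1.70 CPM in any library and *Cd8b1* was 56.3 to 84.2 CPM. The 5 markers of innate-like T cells found in the files summed to 4.22 to 6.70 CPM over all libraries, and *Zbtb16*, which defines NKT cells, had at most 2 reads. B cell markers summed to 5.19 to 8.36, 6.37 to 8.10, 6.92 to 9.73 and 9.79 to 10.6 CPM, and myeloid and dendritic cell markers to 6.30 to 18.4, 9.87 to 14.1, 14.6 to 42.7 and 13.2 to 30.1 CPM, in WT Day 3, Il6-/- Day 3, WT Day 5 and Il6-/- Day 5, respectively. The part of these cells in the results was not tested.

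**Figure D1:**
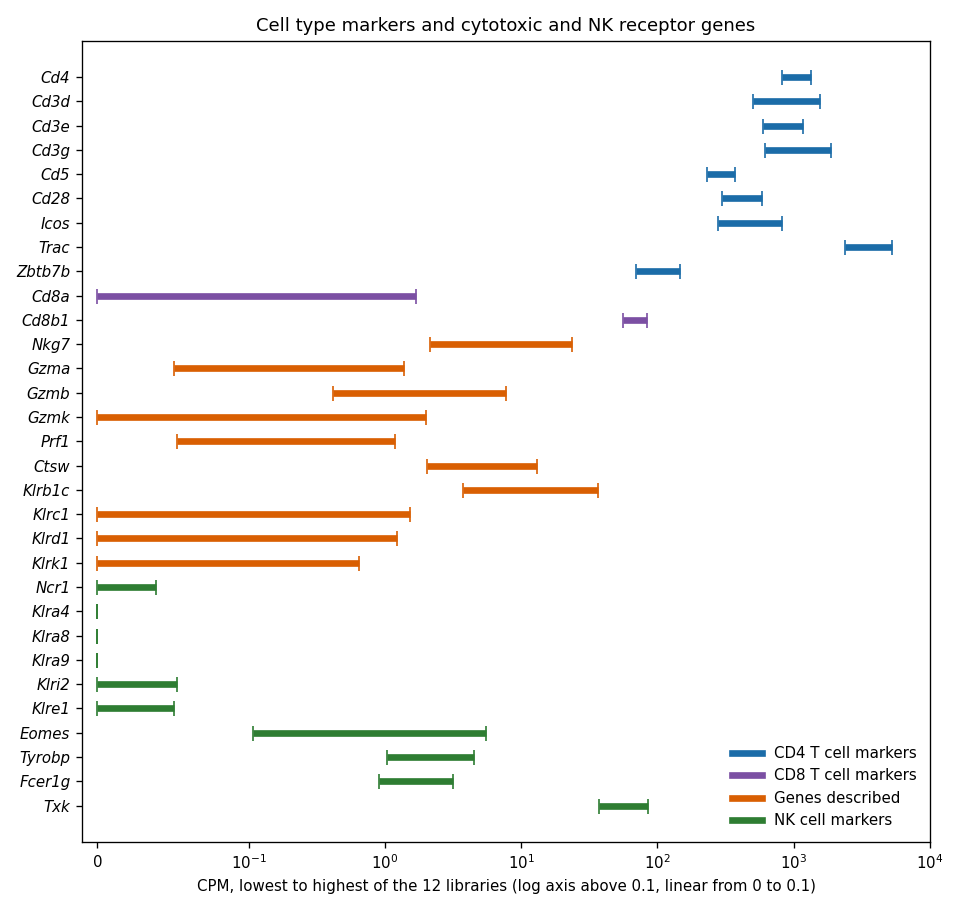
The range of CPM over the 12 libraries is drawn as a bar from the lowest to the highest library for CD4 T cell markers, CD8 T cell markers, the 10 genes described and NK cell markers, on an axis that is logarithmic above 0.1 CPM. *Nkg7*, *Klrb1c* and *Ctsw* reached 23.8, 36.5 and 13.2 CPM, while *Klra4*, *Klra8* and *Klra9* stayed at 0.

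Across the 10 genes, the genotype of the recipient went with differences in both directions, and the genes did not move as a block. On Day 3, the Il6-/- libraries lay wholly above the WT libraries for *Nkg7*, *Klrb1c* and *Ctsw* and wholly below them for *Klrc1*. That makes 4 of the 8 genes that passed the filter, where 36.2% of all genes tested had non-overlapping groups. On Day 5, *Nkg7* and *Gzmk* lay above and *Klrb1c*, *Klrc1* and *Klrd1* below, which makes 5 of these 8 genes against 19.6% of all genes tested. *Gzma* and *Klrk1*, which did not pass the filter, overlapped on both days. Since the genes were chosen with these contrasts known, nothing is read from either share. In bulk libraries, more RNA in each cell and more cells that express a gene cannot be told apart.

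**Figure D2:**
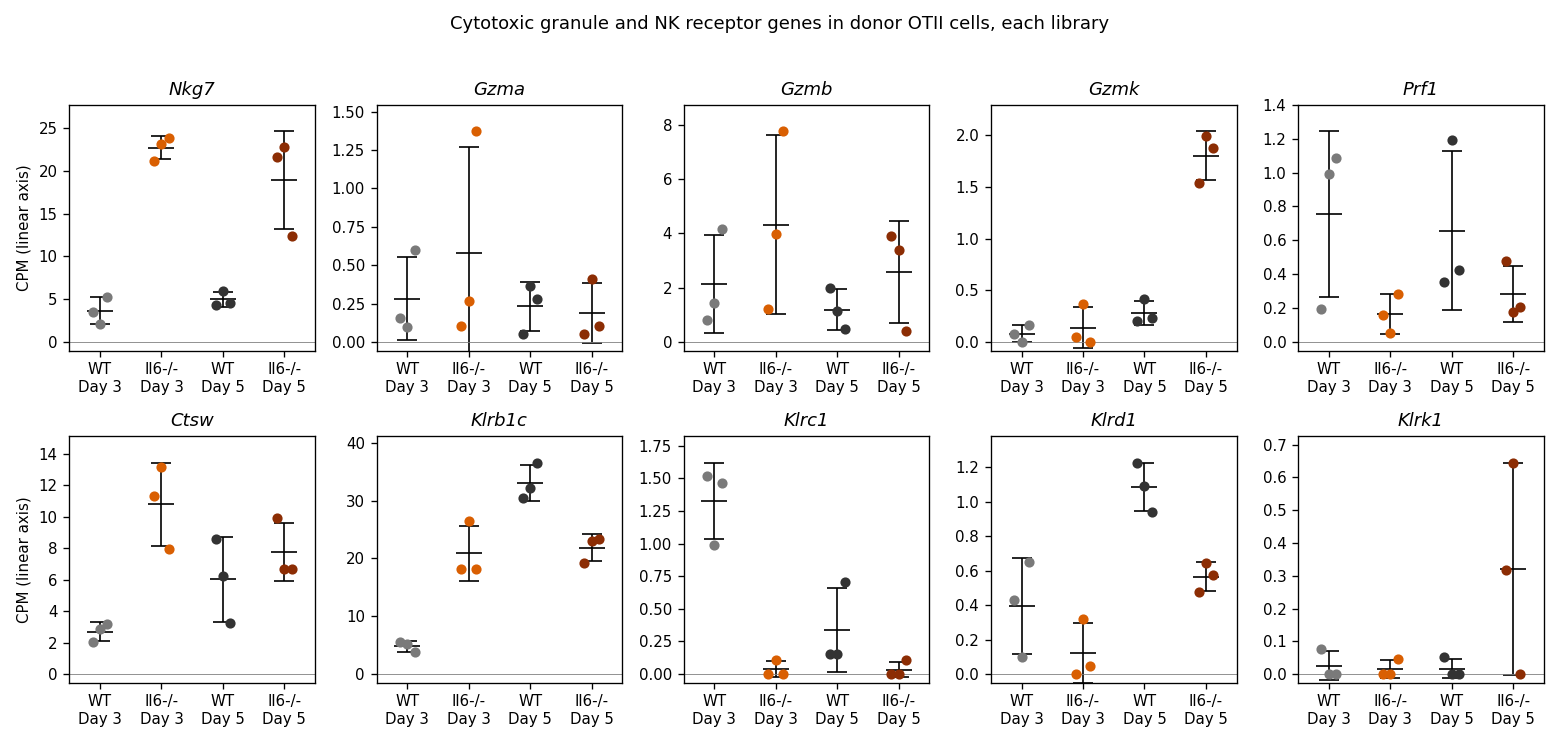
The CPM of each of the 10 genes is plotted for every library (points) in the 4 groups, with the mean and SD of the 3 libraries (black) on a linear axis that differs between panels. *Nkg7* was high in both groups of Il6-/- recipients, *Klrb1c* was low only in WT recipients on Day 3, and *Gzmk* was high only in Il6-/- recipients on Day 5.

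*Nkg7*, which encodes a granule membrane protein needed for efficient degranulation (chr7:43086497-43087678, + strand), separated the recipients on both days. On Day 3, its levels were 3.55, 2.13 and 5.32 CPM in WT recipients and 21.2, 23.2 and 23.8 CPM in Il6-/- recipients. On Day 5, they were 4.33, 6.03 and 4.61 CPM in WT against 21.7, 22.8 and 12.4 CPM in Il6-/- recipients. No Il6-/- library reached down to a WT library on either day, although the third Il6-/- library of Day 5 was nearer to them than the others. The means were 3.67 ± 1.60 and 22.7 ± 1.37 CPM on Day 3 and 4.99 ± 0.911 and 18.9 ± 5.71 CPM on Day 5 (SD, n = 3 in each group). The log2 fold change, Il6-/- over WT, was 2.64 ± 0.28 on Day 3 (SE, 6.23-fold) and 1.92 ± 0.27 on Day 5 (3.80-fold). The difference between the days, 0.71 ± 0.38 on the log2 scale, was less than 2 times its SE. Between Day 3 and Day 5 the libraries overlapped in both genotypes, with log2 changes of 0.45 ± 0.29 in WT and -0.26 ± 0.25 in Il6-/- recipients.

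*Ctsw*, which encodes cathepsin W, a cysteine protease of NK cells and cytotoxic T cells (chr19:5515071-5518535, - strand), differed between recipients on Day 3 and overlapped on Day 5. On Day 3, its levels were 2.03, 2.87 and 3.20 CPM in WT against 11.3, 13.2 and 7.96 CPM in Il6-/- recipients. On Day 5, they were 8.60, 6.23 and 3.24 CPM in WT against 9.90, 6.68 and 6.72 CPM in Il6-/- recipients, higher in Il6-/- recipients in all 3 same-numbered pairs. This pairing was taken from the same libraries and is left out of the main fit, so nothing is read from it. The log2 fold change was 2.01 ± 0.33 on Day 3 (4.02-fold) and 0.37 ± 0.31 on Day 5 (0.43 for *Ctsw* with the replicate number as a block), and these differed by 1.64 ± 0.45. In WT recipients the Day 5 libraries lay wholly above the Day 3 libraries (log2 change of 1.17 ± 0.33, 2.24-fold), whereas in Il6-/- recipients they overlapped (-0.47 ± 0.30). An exon of *Ctsw* overlaps an exon of *Fibp* on the opposite strand, and counting did not use strand, so that reads of the pair may not be told apart there. *Fibp* itself was 57.4 CPM in WT against 47.0 CPM in Il6-/- recipients on Day 3 (log2 fold change of -0.29 ± 0.09), the direction opposite to that of *Ctsw*. From Day 3 to Day 5 *Fibp* rose in WT recipients (0.51 ± 0.09), the same direction as *Ctsw*. It also rose in Il6-/- recipients (0.81 ± 0.09), where the *Ctsw* libraries overlapped. The part of *Fibp* reads in the *Ctsw* values was not tested.

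Among the granzymes, *Gzmk*, a granzyme of tryptase type (chr13:113308142-113362442, - strand), was near the floor on Day 3 and separated the recipients on Day 5. Its reads in the 3 libraries numbered 2, 0 and 3 in WT and 1, 7 and 0 in Il6-/- recipients on Day 3. On Day 5, they numbered 4, 8 and 5 in WT and 29, 34 and 36 in Il6-/- recipients. All 3 Il6-/- libraries of Day 5 were above every other library. Their mean was 1.80 ± 0.237 CPM against 0.285 ± 0.114 CPM in WT (SD, n = 3), a log2 fold change of 2.64 ± 0.74 (6.23-fold). On Day 3 the ratio of summed reads, Il6-/- over WT, was 1.75 with an exact 95% Poisson interval of 0.504 to 6.79, and without the second Il6-/- library of Day 3 the fitted log2 fold change turned from 0.77 to -1.43. From Day 3 to Day 5, the log2 change of *Gzmk* was 3.65 ± 0.81 in Il6-/- recipients (12.5-fold, and 5.84 on the log2 scale without the second Il6-/- library of Day 3), while in WT recipients the ratio of summed reads was 3.63 (1.29 to 12.6). The fitted log2 change in WT recipients was 1.78 ± 0.97 (SE). The Poisson intervals of *Gzmk* pool the 3 libraries of a group, so they cover counting error only and leave out the spread between libraries.

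*Gzmb*, the granzyme that cleaves after aspartate and activates caspases (chr14:56496295-56499717, - strand), had overlapping groups throughout. On Day 3, it was 0.819, 1.43 and 4.18 CPM in WT against 1.21, 3.98 and 7.77 CPM in Il6-/- recipients. By Day 5, the levels were 1.99, 1.14 and 0.470 CPM in WT against 3.92, 3.40 and 0.416 CPM in Il6-/- recipients. The same-numbered pairs of that day split, with the Il6-/- library higher in the first and second pair and lower in the third. The spread within a group was wide, and the log2 fold changes, Il6-/- over WT, were 1.04 ± 0.75 on Day 3 and 1.10 ± 0.80 on Day 5. Without the third WT library of Day 3 the log2 fold change of *Gzmb* on that day was 1.96. Without the third Il6-/- library of Day 3 it was 0.30. Leaving out 1 library gave 0.66 (the first Il6-/- library) to 1.68 (the first WT library) on Day 5. The third library of the Il6-/- group on Day 5 was lowest for *Gzmb* and for *Nkg7* within its group. *Gzma*, another granzyme of tryptase type (chr13:113230355-113237524, - strand), had 4, 2 and 11 reads in WT against 2, 5 and 29 reads in Il6-/- recipients on Day 3. Its Day 5 libraries held 1, 7 and 6 reads in WT against 1, 7 and 2 reads in Il6-/- recipients. The *Gzma* groups overlapped in every comparison, and a difference was not detectable at this depth.

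*Prf1*, which encodes perforin (chr10:61133546-61140461, + strand), had 5, 20 and 20 reads in WT against 3, 1 and 6 reads in Il6-/- recipients on Day 3. Day 5 libraries held 7, 23 and 9 reads in WT against 9, 3 and 4 reads in Il6-/- recipients, with the Il6-/- library higher in the first same-numbered pair only. The genotype groups overlapped on both days, with means of 0.757 ± 0.489 CPM in WT against 0.165 ± 0.116 CPM in Il6-/- recipients on Day 3 (SD, n = 3) and log2 fold changes of -2.10 ± 0.81 on Day 3 (-2.74 without the third Il6-/- library of that day) and -1.17 ± 0.76 on Day 5 (-0.43 without the second WT library of that day). The sign of the perforin values was thus opposite to that of *Nkg7* and *Gzmb*, and no library held more than 1.20 CPM of *Prf1*.

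Of the lectin receptors, *Klrb1c*, which encodes NK1.1, a receptor of the NKR-P1 family (chr6:128755448-128766178, - strand), had the highest read count of the 10 genes and opposite differences on the 2 days. On Day 3, it was 5.58, 5.14 and 3.75 CPM in WT against 18.2, 26.4 and 18.2 CPM in Il6-/- recipients. On Day 5, it was 30.4, 32.3 and 36.5 CPM in WT against 19.2, 23.1 and 23.3 CPM in Il6-/- recipients. The Il6-/- libraries were thus wholly above the WT libraries on Day 3 and wholly below them on Day 5. The log2 fold change, Il6-/- over WT, was 2.11 ± 0.18 on Day 3 (4.30-fold) and -0.60 ± 0.16 on Day 5 (1.51-fold lower). The difference between the days was 2.70 ± 0.24. It went with a log2 change of 2.77 ± 0.18 from Day 3 to Day 5 in WT recipients (6.80-fold) and a change of 0.06 ± 0.16 in Il6-/- recipients, where the libraries of the days overlapped.

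*Klrc1*, which encodes the inhibitory receptor NKG2A (chr6:129642978-129655936, - strand), had reads almost only in WT recipients. On Day 3, it had 39, 20 and 27 reads in WT against 0, 2 and 0 reads in Il6-/- recipients. The Day 5 libraries held 3, 3 and 15 reads in WT against 0, 0 and 2 reads in Il6-/- recipients. Both Il6-/- groups were at the floor and lay wholly below the WT groups. The ratio of summed reads, WT over Il6-/-, was 39.4 on Day 3 (exact 95% Poisson interval of 10.6 to 330.5) and 9.63 on Day 5 (2.35 to 84.7), and these intervals cover counting error only. In WT recipients the Day 5 libraries lay wholly below the Day 3 libraries, with a log2 change of -1.93 ± 0.73 (-3.06 without the third WT library of Day 5).

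*Klrd1*, which encodes CD94, the partner chain of NKG2A (chr6:129568677-129575738, + strand), had 11, 2 and 12 reads in WT against 0, 6 and 1 reads in Il6-/- recipients on Day 3. On Day 5, it had 24, 21 and 20 reads in WT against 9, 11 and 11 reads in Il6-/- recipients. The groups overlapped on Day 3 and the Il6-/- libraries lay wholly below on Day 5, when the means were 1.08 ± 0.141 CPM in WT against 0.565 ± 0.0844 CPM in Il6-/- recipients (SD, n = 3). The log2 fold changes were -1.66 ± 0.86 on Day 3 (-3.68 without the second Il6-/- library of that day) and -0.94 ± 0.67 on Day 5. Unlike *Klrc1*, *Klrd1* had higher Day 5 than Day 3 libraries in both genotypes, with log2 changes of 1.46 ± 0.69 in WT and 2.18 ± 0.84 in Il6-/- recipients (4.19 without the second Il6-/- library of Day 3). *Klrk1*, which encodes the activating receptor NKG2D (chr6:129587286-129600827, - strand), had 2, 0 and 0 reads in WT against 0, 0 and 1 reads in Il6-/- recipients on Day 3. On Day 5, it had 1, 0 and 0 reads in WT against 6, 11 and 0 reads in Il6-/- recipients, so that 2 of 3 Il6-/- libraries held all but 1 of the reads of that day and the groups overlapped.

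**Figure D3:**
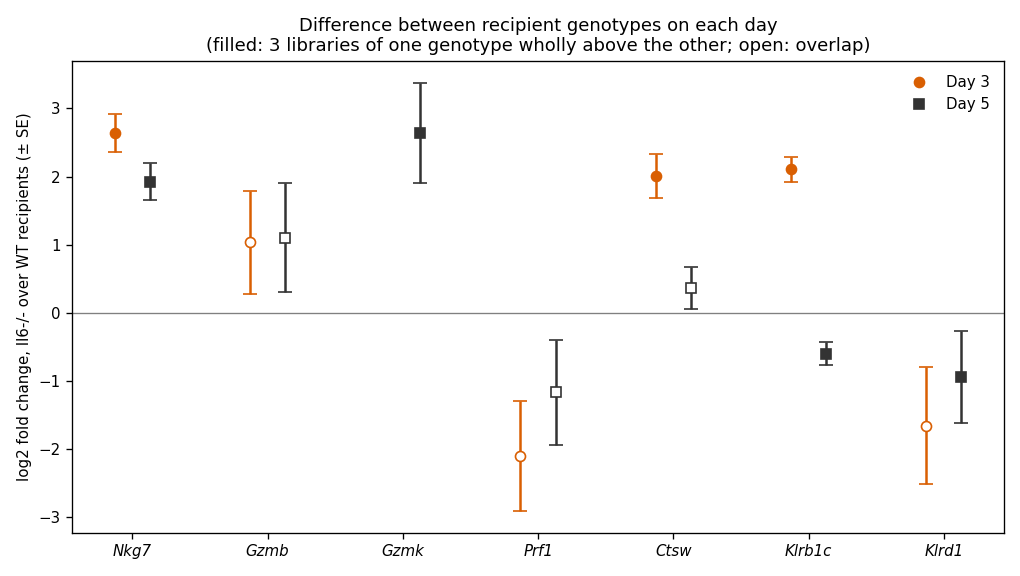
The log2 fold change of Il6-/- over WT recipients (± SE) is plotted for Day 3 and Day 5, filled where the 3 libraries of one genotype lay wholly above those of the other. *Klrb1c* changed side of 0 between the days, from 2.11 to -0.60, while *Nkg7* stayed at 2.64 and 1.92. *Klrc1* and the Day 3 value of *Gzmk* are not drawn because a group was at the floor.

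Over time, 63.3% of all genes tested had non-overlapping libraries between Day 3 and Day 5 in WT recipients and 65.8% in Il6-/- recipients. Of the 10 genes, *Klrb1c*, *Klrd1*, *Gzmk* and *Ctsw* were wholly higher and *Klrc1* wholly lower on Day 5 in WT recipients. In Il6-/- recipients, *Klrd1* and *Gzmk* were wholly higher on Day 5 and none was wholly lower.

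Per kilobase of exon, *Nkg7* had the highest level of the 10 genes in WT recipients on Day 3 (3.99 CPM per kb), in Il6-/- recipients on Day 3 (24.7) and in Il6-/- recipients on Day 5 (20.6). In each of these 3 groups its libraries did not overlap with those of the next gene, *Klrb1c*, at 1.51, 6.55 and 6.84 CPM per kb. In WT recipients on Day 5 the order of this pair was the other way, with *Klrb1c* at 10.4 and *Nkg7* at 5.43 CPM per kb and no overlap. *Ctsw* was the next in both Day 5 groups, at 3.19 CPM per kb in WT and 4.11 in Il6-/- recipients, and overlapped with a neighbour in the order on Day 3. *Prf1*, *Gzma*, *Klrc1* and *Klrk1* had at most 0.668 CPM per kb in any group, and most of these neighbours in the order overlapped. The 10 genes were far below the T cell receptor genes, in CPM, since *Cd3e* had at least 592 CPM in every library and none of the 10 exceeded 36.5 CPM.

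Over the 12 libraries, which share day and recipient as sources of variation, *Nkg7* correlated with *Ctsw* (Pearson's r of 0.795 on log2 CPM) and ran against *Klrc1* (-0.858), and *Ctsw* also ran against *Klrc1* (-0.889). *Nkg7* and *Klrb1c* had an r of 0.444. Among the genes most like *Nkg7* were *C1qtnf6* (0.937) and *Gm10804* (0.92), those most like *Klrb1c* were *Wnt10a* (0.949), *Gjb2* (0.938) and *Chst15* (0.914), and those most like *Ctsw* were *Gm35113* (0.938), *Psme2b* (0.903) and *Lta* (0.895). For the sparser genes the closest were *Tktl1* (0.937), *Snap23* (0.914) and *Fnbp1* (0.909) to *Gzmk*, *Trp53i13* (0.942), *Cmpk2* (0.915) and *H2az2* (0.912) to *Klrc1*, and *Gm23444* (0.934), *Akap7* (0.921) and *Gm32176* (0.917) to *Klrd1*. The closest genes to *Gzmb* were *Rnf141* (0.882), *Sra1* (0.82) and *Dffb* (0.802), and to *Prf1* they were *Rcbtb2* (0.871), *Gm38733* (0.84) and *Trim30a* (0.832). These values are among the highest of 13569 correlations for each gene and are descriptions of 12 libraries.

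The rest of the cytotoxic and NK receptor machinery was followed in 9 lists of 120 other genes, of which 119 were in the files and 85 passed the low-count filter. The lists were drawn up with earlier results of these data known. Their shares and medians, here and below, are therefore descriptions, and nothing is read from their distance to those of all genes. On Day 3, 8 listed genes rose and 12 fell in Il6-/- recipients at an adjusted p (edgeR's quasi-likelihood test, Benjamini-Hochberg) under 0.05, or 9.41% and 14.1% of those tested, against 7.52% and 6.19% of all genes tested. On Day 5, 3 rose and 4 fell, or 3.53% and 4.71% against 1.27% and 3.35% of all genes, and with the replicate number as a block 8 rose and 8 fell. The median log2 fold change of the listed genes was -0.10 on Day 3 and 0.07 on Day 5, against 0.01 for all genes on both days. A difference of the genotype effect between the days passed for 2 listed genes that were higher on Day 3 and 4 that were lower, where 3.12% and 1.8% of all genes passed. Many of the killer-cell lectin receptor genes had no counted read: 11 of 23 had none in any library and 2 passed the filter. Reads not uniquely placed were left out, which can lower genes with close copies such as *Klrc2* and *Klrc3*. The part of this in the counts of 0 was not tested.

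The 2 other granzymes that passed the filter, *Gzmc* and *Gzmm*, did not pass for genotype (adjusted p = 0.51 and 0.82 on Day 3 and 0.68 and 0.75 on Day 5), and *Gzmm*, the one with the highest count, had 0.723 CPM in WT against 0.583 CPM in Il6-/- recipients on Day 3 (log2 fold change of -0.30 ± 0.63). Of 14 granule matrix, protease and protector genes, 2 rose and 2 fell on Day 3. *Serpina3g*, a serpin, rose from 0.143 to 0.782 CPM (log2 fold change of 2.42 ± 0.72, adjusted p = 0.037), and *Srgn*, the proteoglycan core of the granule, fell from 459.6 to 344.1 CPM (-0.42 ± 0.11, adjusted p = 0.024). Of 12 transport and exocytosis genes, *Unc13d* fell on Day 3 (-0.29, adjusted p = 0.042), and *Coro1a*, the one with the highest count, did not pass (4081 and 3678 CPM). *Serpinb6b*, an intracellular serpin, also rose on Day 3 (0.65 ± 0.13, adjusted p = 0.0053). *Gnptab*, an enzyme of the sorting tag of lysosomal proteins, also fell (-0.53 ± 0.12, adjusted p = 0.0071). This pair was picked with its values in view and kept both Day 3 calls with any 1 library left out. *Gnptab* was lower on Day 5 as well, at 45.87 CPM in WT against 26.95 CPM in Il6-/- recipients, and passed on that day in all 18 alternative settings. *Serpinb6b* passed on Day 5 in 0 of them. The calls on *Serpina3g*, *Srgn* and *Unc13d* depended on single libraries. The adjusted p rose to 0.063 to 0.13 for *Serpina3g* without WT replicate 1 or 2 or any Il6-/- replicate of Day 3, to 0.081 to 0.12 for *Srgn* without WT replicate 2 or 3 or Il6-/- replicate 1 or 2 of Day 3, and to 0.054 to 0.15 for *Unc13d* without any 1 library of Day 3 or WT replicate 2 of Day 5.

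Of 9 death ligands and effector cytokines, 2 rose on Day 3. *Lta*, lymphotoxin alpha, rose from 42.8 to 89.3 CPM (1.06 ± 0.10, adjusted p = 1.3e-05), and *Fasl*, the ligand of the death receptor Fas, from 1.12 to 2.75 CPM (1.28 ± 0.34, adjusted p = 0.021). On Day 5, *Lta* alone passed, with 60.1 CPM in WT against 78.6 CPM in Il6-/- recipients (0.39 ± 0.10, adjusted p = 0.037). *Ltb*, the list's gene with the highest count, had 264.2 and 217.3 CPM on Day 3 and did not pass on either day, although without Il6-/- replicate 1 or 2 of Day 5 its adjusted p on Day 3 was 0.021 and 0.017 and without the former that on Day 5 was 0.03. Over all alternative settings, *Ltb* passed in 6 of 18 on Day 3 and in 1 of 18 on Day 5. Without WT replicate 1 or 3 or Il6-/- replicate 1 or 2 of Day 3 the adjusted p of *Fasl* on Day 3 was 0.075 to 0.087, and without WT replicate 1 or 2 or any Il6-/- replicate of Day 5, WT replicate 2 or 3 of Day 3 or Il6-/- replicate 2 of Day 3 that of *Lta* on Day 5 was 0.05 to 0.14. From Day 3 to Day 5, 6 of 9 genes of this list rose in WT and 7 of 9 in Il6-/- recipients, where 29.5% and 30.4% of all genes tested rose. Among them, *Fasl* rose by 4.27 ± 0.32 and 2.79 ± 0.29 on the log2 scale (adjusted p = 5.9e-08 and 8.1e-07).

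Among the receptors and their partners, *Klrb1f*, an activating NKR-P1 receptor of the same family as *Klrb1c*, fell from 3.66 to 1.48 CPM on Day 3 (-1.30 ± 0.37, adjusted p = 0.029), opposite to *Klrb1c* on that day. Of 8 other NK-type receptors, *Tigit*, an inhibitory receptor for poliovirus receptor, fell from 53.5 to 7.65 CPM (-2.80 ± 0.49, adjusted p = 0.0016) and 1 rose. That gene, named with its values in view, was *Cd226*, the activating receptor DNAM-1, which rose from 60.8 to 93.3 CPM (0.62 ± 0.08, adjusted p = 2e-04). *Il2rb*, a chain of the IL-2 and IL-15 receptors and the highest of that list, did not pass on Day 3 (556.6 and 603.8 CPM) and passed on Day 5 (592.5 and 720.3 CPM, 0.28 ± 0.07, adjusted p = 0.037). *Hcst*, the adaptor DAP10 through which NKG2D signals, and *H2-T23*, the class I-like ligand of CD94-NKG2A, are named as partners of the 10 genes and were chosen after their values were seen. *Hcst* was 74.3 and 58.1 CPM on Day 3 and 435.9 and 286.9 CPM on Day 5 in WT and Il6-/- recipients (-0.60 ± 0.15 on Day 5, adjusted p = 0.034), and *H2-T23* was 273.9 and 209 CPM on Day 3 (-0.39 ± 0.09, adjusted p = 0.0087) and did not pass on Day 5. The highest adaptor and ligand genes, *Cd247* (589.2 and 508.4 CPM on Day 3) and *H2-D1* (2690 and 2412 CPM), did not pass on either day, but on Day 3 *Cd247* passed without WT replicate 1 of Day 3 (adjusted p = 0.036) or Il6-/- replicate 2 of Day 5 (0.043) and *H2-D1* without the latter (0.035). Over all alternative settings of Day 3, *Cd247* passed in 5 of 18 and *H2-D1* in 4 of 18. Calls were lost at an adjusted p of 0.062 to 0.1 for *Klrb1f* without any WT replicate or Il6-/- replicate 1 or 3 of Day 3, at 0.058 to 0.17 for *Hcst* without WT replicate 1 or 2 or Il6-/- replicate 2 or 3 of Day 5, and at 0.053 to 0.16 for *Il2rb* without WT replicate 1 or 2 or Il6-/- replicate 2 or 3 of Day 5, WT replicate 2 or 3 of Day 3 or any Il6-/- replicate of Day 3.

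Of 23 transcription factors, 3 rose and 5 fell on Day 3 in Il6-/- recipients. *Tbx21*, which encodes T-bet, rose from 2.56 to 14.4 CPM (2.49 ± 0.29, adjusted p = 8.7e-05) and on Day 5 was 2.70 and 5.46 CPM (1.02 ± 0.29, adjusted p = 0.061). *Bcl6*, the transcriptional repressor that defines follicular helper T cells, fell from 38.5 to 17.3 CPM (-1.15 ± 0.16, adjusted p = 0.00038), and *Tcf7* fell from 1435 to 1153 CPM (-0.32 ± 0.07, adjusted p = 0.0069). *Bhlhe40*, a regulator of T cell cytokines, rose from 62.4 to 134.5 CPM (1.11 ± 0.32, adjusted p = 0.031). On Day 5, *Zbtb32*, a repressor induced in activated lymphocytes, was 8.88 CPM in WT against 31.4 CPM in Il6-/- recipients (1.81 ± 0.30, adjusted p = 0.0039) after 109.4 and 92.3 CPM on Day 3. *Eomes* and *Runx3*, chosen after their values were seen because they are known to act on *Prf1* and *Gzmb*, did not pass for genotype on either day, at 1.80 ± 0.59 and 0.25 ± 0.10 on Day 3. The calls were lost without WT replicate 2 of Day 3 for *Tcf7* (adjusted p = 0.054) and without WT replicate 1 or 3 or Il6-/- replicate 1 or 2 of Day 3 for *Bhlhe40* (0.063 to 0.14). For *Tbx21* on Day 5 the adjusted p was 0.038 without Il6-/- replicate 1 of that day, and for *Eomes* on Day 3 it was 0.037 without Il6-/- replicate 3 of Day 3 and 0.046 without Il6-/- replicate 1 of Day 5. Over all alternative settings, *Tbx21* passed on Day 5 in 5 of 18 and *Eomes* on Day 3 in 5 of 17.

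**Figure D4:**
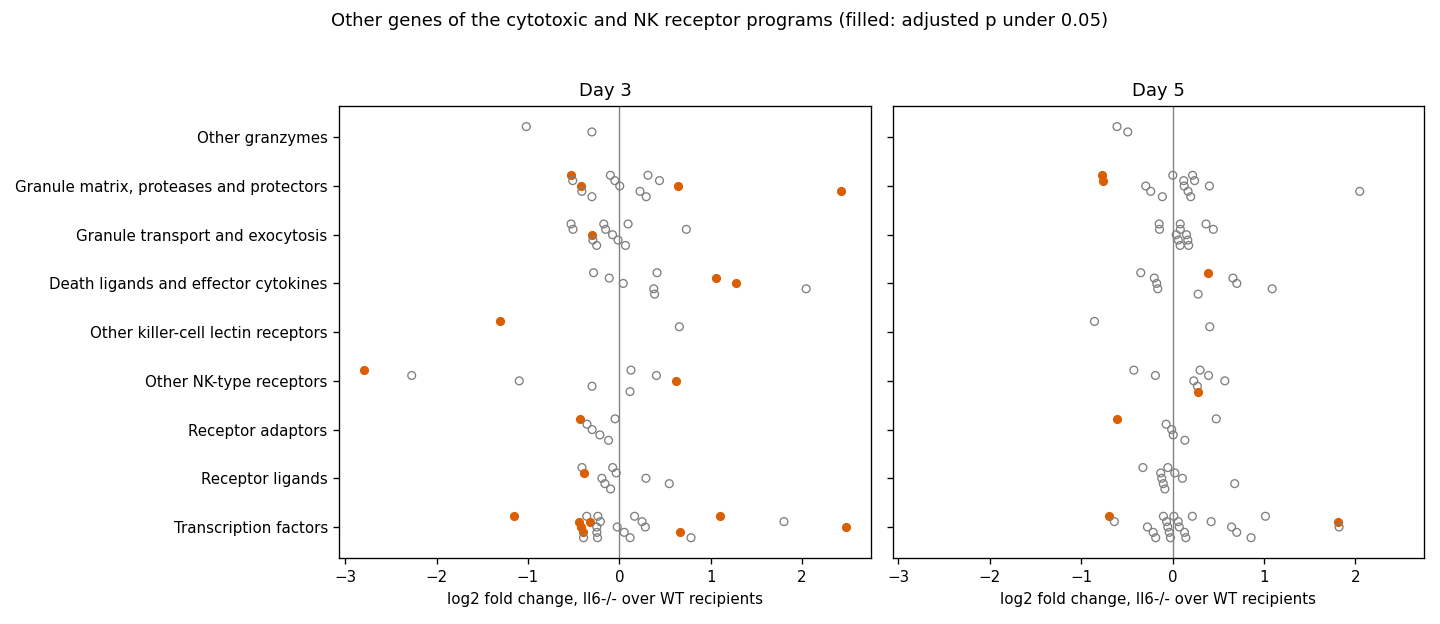
Each point is a listed gene that passed the low-count filter, placed by its log2 fold change, Il6-/- over WT recipients, on Day 3 (left) and Day 5 (right), and filled where its adjusted p was under 0.05. On Day 3, 20 of 85 genes are filled, on both sides of 0 and with the transcription factors holding 8 of them, and on Day 5, 7 are filled.

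From Day 3 to Day 5, 40 of the 85 listed genes rose and 13 fell in WT recipients, and 53 rose and 10 fell in Il6-/- recipients, where 29.5% and 27.1% of all genes tested rose and fell in WT and 30.4% and 30.1% in Il6-/- recipients. The listed genes had median log2 changes of 0.51 in WT and 0.67 in Il6-/- recipients, against 0.09 for all genes in both. *Srgn* rose by 1.25 ± 0.11 in WT and 1.37 ± 0.12 in Il6-/- recipients (adjusted p = 3.7e-07 and 1.2e-07), and *Hcst* by 2.55 ± 0.16 and 2.30 ± 0.16 (adjusted p = 2.4e-08 and 2.5e-08). Of the 10 genes themselves, those wholly higher on Day 5 in both genotypes were *Klrd1* and *Gzmk*.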

How the data were processed

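RNA-seq was performed on polyA RNA of sorted donor OTII cells (12 libraries). Per the labels and the methods of the study, the authors trimmed single-end reads with Trim Galore (version 0.4.4), aligned them to GRCm39 with STAR (version 2.5.2a) and made raw counts per gene with HTSeq (version 0.6.1p1) without using strand. The deposited count files were used, and rows that name no gene were left out (not uniquely placed, 23.7% to 28.3%; no feature, 11.7% to 17.3%; ambiguous, 1.96% to 2.28% of reads). The deposited table of log2 CPM values was not used.

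Counts were TMM-scaled and fitted with edgeR (version 4.0.16, R version 4.3.3) by quasi-likelihood, with 1 coefficient per group over all 12 libraries, after filterByExpr kept 13570 genes. The filter and the test were chosen for counts. Each SD is that of the 3 libraries of a group. Each SE is the absolute log2 fold change divided by the square root of its F statistic. The fit behind that statistic estimates the spread from all 12 libraries. CPM are reads scaled to a library total of 1000000 after TMM. Calls on listed genes took an adjusted p under 0.05 (Benjamini-Hochberg over all genes tested). Levels per kilobase used the exon length of GENCODE vM39, and promoters were read from GRCm39. The genes and lists were chosen with earlier results of these data known. Named listed genes were those past the call with at least 2-fold on Day 3 or Day 5 and the highest-count gene of each list, and the 3 genes with the highest r were named for each of the 8 genes tested, except 1 gene that is not reported here.

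Replicate numbers from the titles were checked for pairing. Deviations of same-numbered WT and Il6-/- libraries correlated by 0.243, 0.206 and 0.129 on Day 5, where the numbers were taken to pair the libraries. They correlated by 0.0333, 0.0599 and 0.0325 on Day 3, where the numbers were not taken to pair them, although each library was closest to its own number there too. The main fit had no block, so its SE and adjusted p leave out any pairing, also on Day 5. No 2 libraries of a group differed by less than sampling noise (chi-square per gene of 5.26 to 28.6). Alternatives were RLE scaling, no scaling, no low-count filter, DESeq2 (version 1.42.0), a replicate block, each library left out, each day alone and a 2-fold limit.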

Additional observations from a re-analysis of the deposited data

Results flagged for a closer look

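*Klrb1c* was higher in every Il6-/- than WT library on Day 3 and lower in every one on Day 5, a difference between the days of 2.7 on the log2 scale; as the gene was chosen with these values known, the difference was not tested. Among the listed genes, the effect of recipient genotype differed between Day 3 and Day 5 by the test of the difference itself (edgeR's quasi-likelihood test, Benjamini-Hochberg over all genes tested) for 6 genes. The effect on Day 3 was more positive than on Day 5 for *Lta* (0.676, adjusted p = 0.015) and *Id2* (0.98, adjusted p = 0.014). For *Id2*, the log2 fold change was 0.14 to 0.43 on Day 3 over 18 alternative settings and passed in 0 of them. Its value on Day 5 was negative, at -0.84 to -0.58, and passed in 15 of 18. It was more negative on Day 3 for *Tigit* (-3.19, adjusted p = 0.014), *Bcl6* (-1.12, adjusted p = 0.014), *Zbtb32* (-2.06, adjusted p = 0.011) and *Unc13d* (-0.471, adjusted p = 0.048). The call on *Lta* was lost without Il6-/- replicate 1 or 2 of Day 3 (adjusted p = 0.051 in each case), and that on *Unc13d* without any one library except Il6-/- replicate 2 or 3 of Day 5 (0.053 to 0.12).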

How the results depend on the processing

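Of 675 log2 fold changes of the genes described under other settings, 661 moved by less than 1 SD and 18 changed sign. This SD came from the SE of the same value in the main fit, so a gene with a wide spread could move far and stay within it. *Gzmb* on Day 3, for example, ranged from 0.30 to 1.96 around 1.04 and stayed within it. The counts of listed genes also depended on the setting. Of genes higher and lower in Il6-/- recipients on Day 3 (8 and 12 as reported), there were 13 higher without the low-count filter, 19 lower without scaling, 27 lower with the libraries of the day alone, and 5 and 3 at 2-fold. On Day 5 (3 and 4), there were 9 higher without the filter, 5 higher by DESeq2, 1 higher with the day alone, and 1 and 0 at 2-fold. For the difference between the days (2 and 4), there were 7 higher without the filter, 4 and 8 by DESeq2 and 8 lower without scaling. At 2-fold the changes over time (40 and 13 in WT, 53 and 10 in Il6-/- recipients) were 20 and 4 and 26 and 4. With a replicate block within each day, there were 14 and 24 on Day 3, 8 and 8 on Day 5 and 6 and 9 for the difference, and every library correlated best with its own number, which is a hint from the data. A block could not be used over time because the numbers lie within a day. Leaving out 1 library gave 4 to 10 higher and 7 to 20 lower on Day 3, 1 to 4 and 1 to 7 on Day 5, and 1 to 3 and 3 to 6 for the difference, 35 to 42 and 12 to 14 over time in WT and 43 to 52 and 10 to 11 in Il6-/- recipients. Counts moved by over 1.5 times without WT replicate 1 (5 higher), WT replicate 3 (5 and 7), WT replicate 2 (7 lower) or Il6-/- replicate 2 (4 higher) of Day 3 and without Il6-/- replicate 2 of Day 5 (20 lower) for Day 3. For Day 5 they moved without WT replicate 1 or 2 (1 and 2 each), Il6-/- replicate 1 (7 lower), 2 (1 and 1) or 3 (1 lower) of Day 5 and without WT replicate 3 or Il6-/- replicate 2 of Day 3 (1 higher each), and for the difference without Il6-/- replicate 1 or 2 of Day 3 (1 higher each). The cause was not tested. Depth limits *Gzma*, *Gzmk* on Day 3, *Klrc1*, *Klrd1*, *Klrk1* and *Prf1*, which had few reads.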
